A study of Mus musculus with 6 samples.

Results

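The core circadian clock genes were read in lungs of balb/c mice in 6 bulk RNA sequencing libraries, 3 at D14 and 3 at D0 after K7M2 cells, a murine osteosarcoma line with lung metastases, were implanted orthotopically. The 10 genes were taken by symbol from 29753 usable lines of the count table: the activators Arntl (BMAL1), Npas2 and Clock, the repressors Per1, Per2, Per3 and Cry1, the nuclear receptors Nr1d1 and Nr1d2 (REV-ERB alpha and beta), and the output factor Dbp. All 10 passed the filter on low counts, as did 17686 genes in all. Both groups share the strain and the tumour cells. The sources used here do not give the age or sex of the mice, whether a library came from 1 mouse, or the hour of collection. The series has no D14 group without implanted cells, so the day and the implantation cannot be told apart. The titles call the 3 libraries of each day biological replicates, and the p-values rest on the spread between them.

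The mammalian clock is a transcriptional loop. BMAL1 pairs with CLOCK or with its paralogue NPAS2 and binds E-box sequences in the Per, Cry, Nr1d and Dbp genes. PER and CRY proteins then block the activators, REV-ERB proteins repress Arntl and Npas2, and DBP activates genes that carry D-box sequences, Per3 among them. In peripheral tissues of the mouse, the lung included, Arntl and Npas2 transcripts peak around the end of the night. Nr1d1 peaks near the middle of the light phase, Dbp and Per3 later in that phase and Per1 and Per2 around the start of the night, with Cry1 after them. Arntl and Npas2 and most of the genes they drive are therefore high at different times, with Cry1 the latest of the driven genes. The balance of the arms in 1 sample bears on clock phase without fixing it. Per1 is also induced directly by glucocorticoids and by CREB.

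The libraries held 14878101 to 17385006 counts. Levels are in CPM, that is counts scaled to library size, here with TMM factors. D0 replicate 3 stood apart from the others on the first principal component of all genes (42.6% of the variance), with a score of 82.85, the other libraries ranging from −41.48 to 15.71. Its summed red cell markers reached 52460 CPM, against 16430 to 28890 CPM at D14 and 9237 and 18920 CPM in the other D0 libraries. The lung label fitted its markers: 6 of 6 alveolar type 2 genes summed to 20700 to 27350 CPM at D14 and 20420 to 46490 CPM at D0, and 3 of 3 club cell genes to 17420 to 25050 CPM at D14 and 8808 to 18310 CPM at D0. The other compartments, all of whose listed markers had counts in every library, also varied. Endothelial markers summed to 4203 to 4328 CPM at D14 and 1828 to 3585 CPM at D0, and macrophage markers to 247.9 to 292.9 CPM at D14 and 195.4 to 747 CPM at D0. B cell markers summed to 71.94 to 97.23 CPM at D14 and 116.8 to 205.5 CPM at D0, adipocyte markers to 24.85 to 519.5 CPM at D14 and 23.02 to 213.6 CPM at D0, and heart and skeletal muscle markers to 265.2 to 429.9 CPM at D14 and 160.4 to 732.7 CPM at D0. Of these 6 muscle genes, 2, Myh6 and Nppa, had every D14 library above every D0 library, against 10.9% of all tested genes. Acta1 and Ckm were highest in D0 replicate 3. The part of these differences in the clock values was not tested, and in bulk tissue fewer cells of a type and less RNA per cell cannot be told apart.

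No core clock gene passed an adjusted p of 0.05 between D14 and D0 in edgeR's quasi-likelihood test over all genes. The count was 0 of 10, where 0.0339% of all tested genes passed, and DESeq2 also called 0 of 10, where it called 1.24% of the genes with an adjusted p. An unadjusted p under 0.05 was seen for 1 of 10, Dbp, against 12.6% of all tested genes. Fold changes were positive for 6 genes and negative for 4, and the median log2 fold change was 0.33, against −0.03 over all tested genes. The clock genes were spread widely among the libraries, most of them more at D0 than at D14.

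Among the activators, Arntl had 21.5, 24.0 and 30.6 CPM in the D14 libraries, against 30.5, 10.5 and 14.3 CPM in the D0 libraries. D0 replicate 1 stood just under the highest D14 library, and the other D0 libraries lay below every D14 library. Its log2 fold change was 0.46 (SE 0.38; edgeR adjusted p = 0.599), and leaving out D0 replicate 1 gave 1.03, leaving out D0 replicate 2 gave 0.18. Npas2, the paralogue of Clock, had 5.39, 11.5 and 14.6 CPM at D14 and 16.3, 3.51 and 6.11 CPM at D0. D0 replicate 1 lay above the D14 range, D0 replicate 2 below it and D0 replicate 3 inside it. The log2 fold change was 0.28 (SE 0.58; edgeR adjusted p = 0.848). Clock itself, the least rhythmic of the activators in many tissues, had 67.7, 83.6 and 115 CPM at D14 and 68.7, 78.3 and 53.1 CPM at D0. The ranges overlapped, and D0 replicate 1 did not lead here (log2 fold change 0.41, SE 0.24; edgeR adjusted p = 0.470). Without D14 replicate 3 the log2 fold change of Clock was 0.18.

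Per1 was the 1 core clock gene of 10 whose ranges did not overlap between the days, where 21.6% of all tested genes have ranges that do not overlap. It had 296, 291 and 274 CPM at D14, against 21.3, 204 and 137 CPM at D0. The D14 libraries were nearly equal and all above D0, while the D0 libraries differed 9.55-fold between the highest and the lowest. Per1 is a protein-coding gene at chr11:69095217-69109960 on the plus strand (GENCODE, GRCm38). Per1 averaged 287 ± 11.3 CPM at D14 and 121 ± 92.2 CPM at D0 (n = 3 each, SD), with a log2 fold change of 1.25 (SE 0.66; edgeR adjusted p = 0.448). Without D0 replicate 1 the log2 fold change was 0.76 (adjusted p = 0.180, edgeR).

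Per2 had 42.0, 42.5 and 36.2 CPM at D14 and 16.6, 46.7 and 21.3 CPM at D0. Only D0 replicate 2 reached the D14 level, and the log2 fold change was 0.51 (SE 0.36; edgeR adjusted p = 0.537), with 1.09 without D0 replicate 2 and 0.25 without D0 replicate 1. Per3 was on average lower at D14, with 36.6, 20.9 and 24.3 CPM at D14 and 25.3, 94.0 and 40.9 CPM at D0. D0 replicate 2 was far above the rest and D0 replicate 1 lay inside the D14 range (log2 fold change −0.97, SE 0.47; edgeR adjusted p = 0.424). Without D0 replicate 2 the log2 fold change of Per3 was −0.28. Cry1, a strong repressor of the activators, varied least over all libraries, with 12.7, 19.6 and 20.6 CPM at D14 and 16.0, 11.9 and 12.8 CPM at D0 (log2 fold change 0.38, SE 0.23; edgeR adjusted p = 0.496; 0.57 without D14 replicate 1 and 0.25 without D14 replicate 3).

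The sequences upstream of Per1, Per3 and Cry1 are shown because they hold sequence words that the loop is known to use. RefSeq windows (GRCm38.p6) were found for 9 of the 10 symbols, Per2 being the one not matched, and the 250 bases before the annotated start were searched on both strands. Words searched were the E-box CACGTG, the D-box TTATGTAA or TTACGTAA, the ROR and REV-ERB element TAGGTCA or TGGGTCA, and the cAMP element TGACGTCA. No 2 of these words overlap in the windows shown. The windows with a match are given 5′ to 3′ on the gene's strand, with the matches in capitals. They lie at chr11:69098699-69098948, plus strand, for the upstream start of Per1, chr4:151044666-151044915, minus strand, for Per3, and chr10:85185055-85185304, minus strand, for Cry1.
Per1: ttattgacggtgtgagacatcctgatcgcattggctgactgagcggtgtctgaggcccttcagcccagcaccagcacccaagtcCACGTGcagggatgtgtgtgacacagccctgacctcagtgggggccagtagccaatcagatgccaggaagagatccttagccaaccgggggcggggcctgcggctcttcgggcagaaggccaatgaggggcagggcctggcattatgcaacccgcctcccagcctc
Per3: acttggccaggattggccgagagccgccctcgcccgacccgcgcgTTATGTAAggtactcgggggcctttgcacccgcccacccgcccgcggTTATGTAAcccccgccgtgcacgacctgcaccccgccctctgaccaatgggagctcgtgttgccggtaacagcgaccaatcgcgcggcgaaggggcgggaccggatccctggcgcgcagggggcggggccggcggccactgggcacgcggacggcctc
Cry1: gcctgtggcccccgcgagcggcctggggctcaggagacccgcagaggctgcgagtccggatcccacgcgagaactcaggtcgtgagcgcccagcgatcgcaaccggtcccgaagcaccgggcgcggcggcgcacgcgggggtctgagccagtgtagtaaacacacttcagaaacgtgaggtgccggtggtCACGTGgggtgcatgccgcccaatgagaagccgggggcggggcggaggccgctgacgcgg

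The Per1 window held 1 E-box, starting 166 bases before the start, and the Cry1 window 1 E-box, starting 60 bases before it. The Per3 window held 2 copies of the D-box TTATGTAA, starting 205 and 158 bases before the start. Of 32851 mouse windows of the same length, 6.02% held an E-box, 0.931% a D-box, 5.38% a ROR and REV-ERB element and 1.55% a cAMP element. The windows of the other matched clock genes, and the downstream start of Per1, held none of these letters. A match is a description of the window, and no match says only that the letters are not in it. Per3, with the D-boxes, and Dbp, whose product binds them, both had their highest level in D0 replicate 2 and their lowest in D14 replicate 2, and so did Nr1d1, whose window held no D-box.

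The REV-ERB genes were also highest in D0 replicate 2. Nr1d1 had 122, 86.0 and 89.5 CPM at D14 and 122, 253 and 117 CPM at D0. D0 replicate 2 stood above all other libraries. D0 replicate 1 lay just above the highest D14 library (122.3 against 121.6 CPM), and D0 replicate 3 lay inside the D14 range. The log2 fold change was −0.73 (SE 0.32; edgeR adjusted p = 0.406), and −0.27 without D0 replicate 2. Nr1d1 shares 263 exonic bases, 8.55% of its exon length, with Thra on the opposite strand, and the sources used here do not give the strand setting, so its reads are not fully separable. Thra had 2972, 2443 and 2382 counts at D14 and 3053, 2529 and 2026 counts at D0, without a peak in D0 replicate 2. Nr1d2 had 120, 73.9 and 79.0 CPM at D14 and 55.5, 180 and 121 CPM at D0, with the lowest and the highest of all libraries both at D0 (log2 fold change −0.38, SE 0.40; edgeR adjusted p = 0.681).

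Dbp, a PAR bZIP factor and a direct output of the loop, had the widest swing of the clock genes. It is a protein-coding gene at chr7:45705088-45710203 on the plus strand (GENCODE, GRCm38). It had 28.6, 8.29 and 9.17 CPM at D14, against 14.2, 166 and 71.2 CPM at D0. D0 replicates 2 and 3 were above every D14 library, whereas D0 replicate 1 lay inside the D14 range. Dbp averaged 15.4 ± 11.5 CPM at D14 and 83.9 ± 76.9 CPM at D0 (n = 3 each, SD), with a log2 fold change of −2.45 (SE 0.89; unadjusted p = 0.0296, adjusted p = 0.368, edgeR). It was −1.47 without D0 replicate 2 and −3.26 without D14 replicate 1. Dbp shares 539 exonic bases, 18% of its exon length, with Sphk2 on the opposite strand, whose counts were 737, 608 and 609 at D14 and 735, 610 and 729 at D0.

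**Figure D1:**
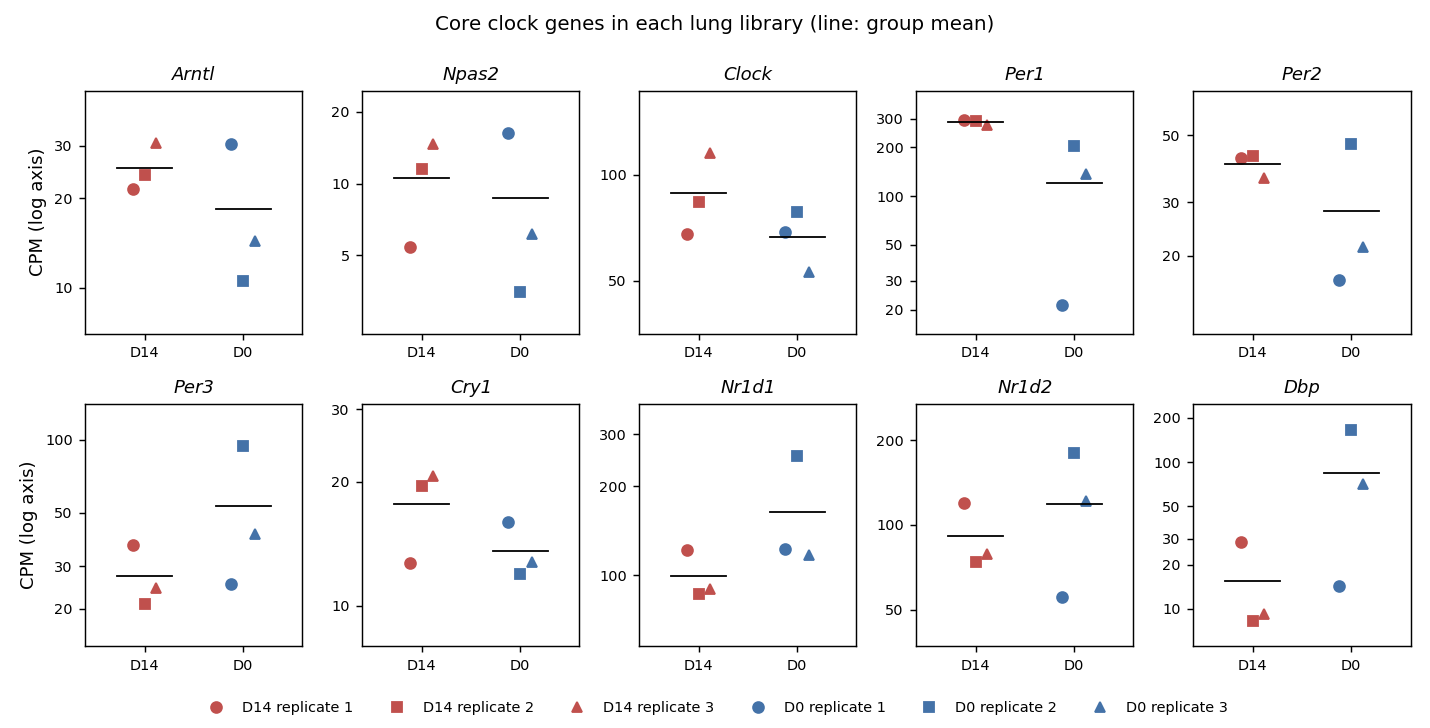
CPM of the 10 core clock genes on a log axis, 1 panel per gene, with D14 libraries on the left, D0 libraries on the right, symbols for replicates and a line at each group mean. Per1 is the gene whose groups do not overlap, and Dbp spans 8.29 to 166 CPM.

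Per kilobase of annotated exon, Per1 and Nr1d1 had the highest levels of the clock genes at D14, and Nr1d1 and Dbp at D0. Per1 averaged 50.9 CPM per kilobase at D14 and 21.4 at D0, and Nr1d1 32.2 at D14 and 53.3 at D0. Nr1d2 averaged 16.8 CPM per kilobase at D14 and 22.0 at D0, and Dbp 5.13 at D14 and 28 at D0. Npas2 was the lowest, at 2.19 CPM per kilobase at D14 and 1.81 at D0. The levels of all 10 genes are on the same scale, but lengths are those of all annotated exons together and not of the transcripts used in lung.

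Set against its own mean over the 6 libraries, each gene shows which arm was up in which library. In D0 replicate 2, Dbp stood 2.63 above its mean on the log2 scale, Per3 1.43, Nr1d1 1.05 and Nr1d2 0.88, while Npas2 stood at −1.21 and Arntl at −0.95. Clock, the remaining activator, stood at 0.05. D0 replicate 2 thus had the Per genes, the Nr1d genes and Dbp above their means and Arntl and Npas2 below theirs. Cry1, also a gene with an E-box, went the other way, at −0.35 in D0 replicate 2, its lowest library. In D0 replicate 1, Npas2 stood at 0.97 and Arntl at 0.58, while Per1 stood at −2.86, Per2 at −0.94, Dbp at −0.91 and Nr1d2 at −0.81. Each of these 6 genes stood on the other side of its mean from D0 replicate 2, a library of the same day, while Clock was at −0.14 and Nr1d1 at its mean. D0 replicate 3 was on the side of D0 replicate 2 for Dbp at 1.41, Arntl at −0.51 and Npas2 at −0.43. It was on the other side for Per1 at −0.18, Per2 at −0.58, Nr1d1 at −0.07 and Clock at −0.51.

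At D14, replicates 2 and 3 had the activators up and most of the driven genes down. Dbp stood at −1.68 and −1.54 in them, Per3 at −0.74 and −0.52, Nr1d1 at −0.51 and −0.45, and Npas2 at 0.47 and 0.81. D14 replicate 1 lay between, with Dbp at 0.09, Per3 at 0.07 and Npas2 at −0.61. Per1 did not follow the other driven genes in these libraries, standing at 0.93, 0.90 and 0.82. Per2, at 0.39, 0.41 and 0.18, was likewise above its mean in all 3 while Dbp and Per3 were below theirs in replicates 2 and 3.

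**Figure D2:**
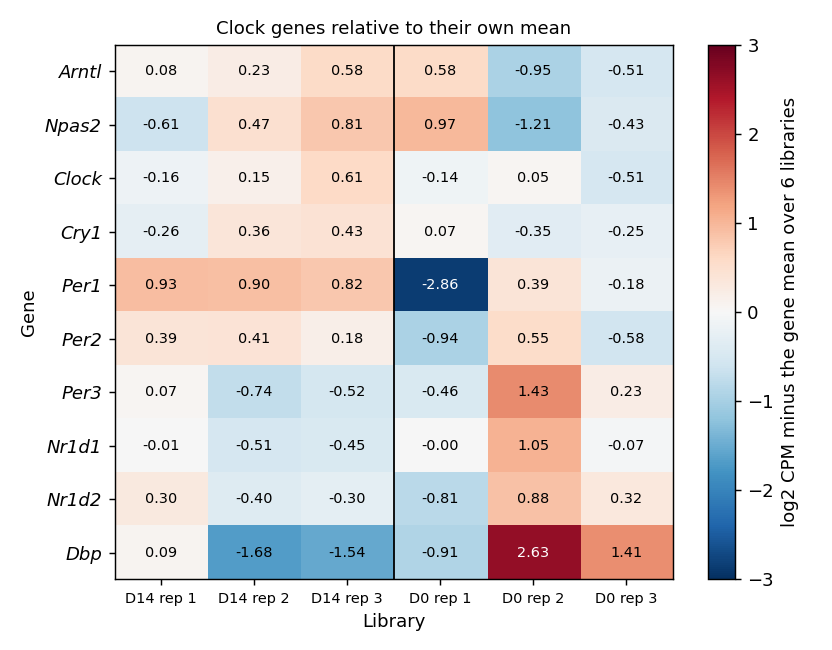
Colour and printed number give log2 CPM minus the gene's own mean over the 6 libraries, for genes down the page and libraries across, D14 left of the black line and D0 right of it. Dbp reaches 2.63 in D0 replicate 2 and Per1 −2.86 in D0 replicate 1, and Per1 is between 0.82 and 0.93 in the D14 libraries.

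Averaged over Arntl, Npas2 and Clock, the activator arm stood at −0.23, 0.28 and 0.66 in D14 replicates 1, 2 and 3, against 0.47, −0.70 and −0.48 in the D0 replicates on the centred log2 scale. The mean of Per1, Per2, Per3, Nr1d1, Nr1d2 and Dbp stood at 0.30, −0.33 and −0.30 at D14, against −0.998, 1.15 and 0.19 at D0. In each of the 6 libraries the arms had opposite signs. In D0 replicate 3 the sign of the driven arm leaned on Dbp, at 1.41. Per3 at 0.23 and Nr1d2 at 0.32 were also above their means there, while Per1, Per2 and Nr1d1 were below theirs. The activator arm minus the driven arm was −0.53, 0.62 and 0.97 at D14, against 1.47, −1.85 and −0.67 at D0, so the D14 libraries lay inside the D0 range. The mean was 0.35 ± 0.78 at D14 and −0.35 ± 1.68 at D0 (SD, n = 3 each), a difference of 0.70. It was −0.05 without D0 replicate 2, 1.10 with Per1 left out of the driven arm and 0.62 with Cry1 added to that arm. No clock time was assigned, since the sources used here do not give the hours of collection.

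**Figure D3:**
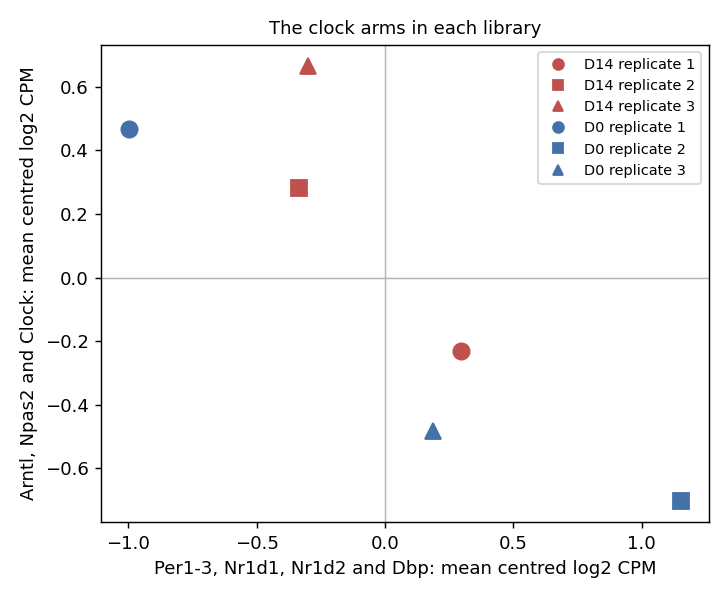
Each point is a library, with the mean centred log2 CPM of the 6 driven genes on the horizontal axis and of the 3 activators on the vertical axis. The points run from D0 replicate 1 at the upper left to D0 replicate 2 at the lower right, and the 3 D14 libraries lie between them on the horizontal axis.

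Ratios of counts within a library do not depend on the scaling between libraries. The log2 ratio of Arntl to Dbp was −0.41, 1.53 and 1.74 in the D14 libraries, against 1.10, −3.98 and −2.31 in the D0 libraries. It placed D0 replicate 1 among the D14 libraries. The log2 ratio of Per1 to Dbp was 3.37, 5.13 and 4.90 at D14, against 0.59, 0.29 and 0.94 at D0. Here D0 replicate 1 stayed with its own day, since Per1 and Dbp were both low in it.

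The log2 ratio of Per1 to Per3 was 3.02, 3.796 and 3.50 at D14, against −0.25, 1.12 and 1.74 at D0. The log2 ratio of Per2 to Per3 was 0.20, 1.02 and 0.58 at D14, against −0.61, −1.01 and −0.94 at D0. Of the 45 pairs of clock genes, 11 had ratios of scaled values whose ranges did not overlap between the days, or 24.4%, where 19.6% of all pairs of tested genes have such ratios. The 11 pairs all lay among the Per genes, the Nr1d genes and Dbp. Per1 and Per2 were each in 5 of them, and none held Arntl, Npas2, Clock or Cry1. The share is near that of all genes, and these ratios were chosen after their values were seen.

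**Figure D4:**
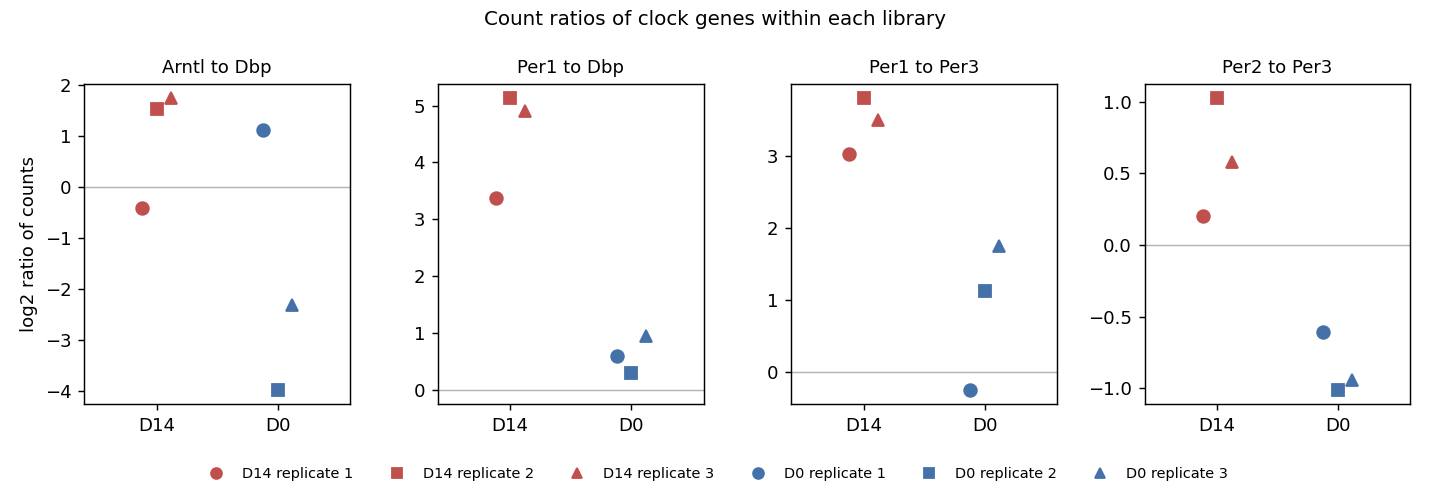
The log2 ratio of counts within each library for 4 pairs of clock genes, with D14 on the left and D0 on the right of each panel. Arntl to Dbp puts D0 replicate 1 among the D14 libraries, whereas Per1 to Dbp, Per1 to Per3 and Per2 to Per3 are higher in every D14 library than in any D0 library.

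The spread within a day was larger at D0 than at D14 for 8 of the 10 clock genes, against 65.8% of all tested genes. The median SD of log2 CPM over the clock genes was 0.38 at D14 and 0.82 at D0, against 0.20 at D14 and 0.31 at D0 over all tested genes. At D14, 2 of the 10, Dbp and Npas2, were above the 90th percentile of all tested genes for this SD, against 7 of 10 at D0. Per1 had the largest contrast between the days. Its SD was 0.06 at D14, at percentile 7.53 of all tested genes, and 1.73 at D0, at percentile 98.98. Dbp was widely spread on both days, with an SD of 0.98 at D14 and 1.798 at D0. Clock and Cry1 were the exceptions, with SDs of 0.39 and 0.38 at D14 and 0.28 and 0.22 at D0.

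**Figure D5:**
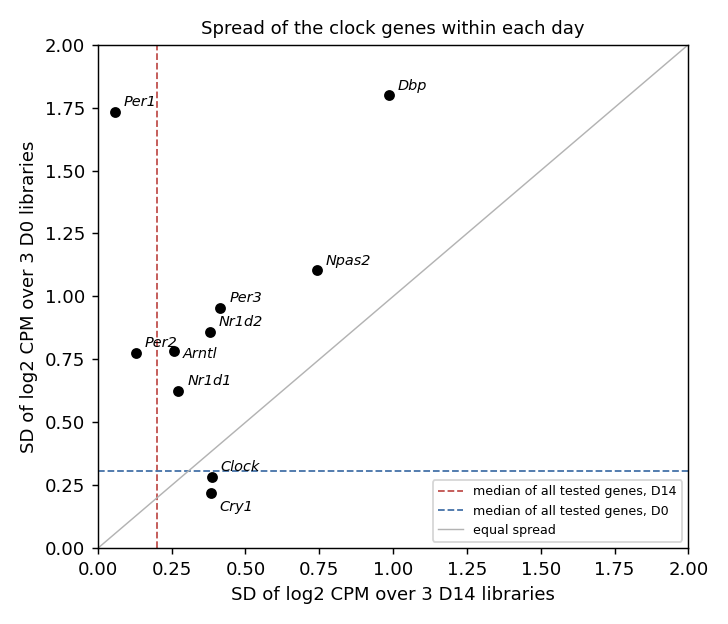
SD of log2 CPM of each clock gene over the 3 D14 libraries on the horizontal axis and over the 3 D0 libraries on the vertical axis, with dashed lines at the medians of all tested genes and a grey line of equal spread. All genes but Clock and Cry1 lie above the line of equal spread.

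The wider clock machinery was read from 17 further genes, of which Rorb was below the count filter. Of the 16 tested, 0 passed an adjusted p of 0.05 in edgeR's test, and 3 were higher and 1 lower at an unadjusted p under 0.05, against 12.6% of all tested genes. DESeq2 called 2, Bhlhe40 higher and Bhlhe41 lower (adjusted p = 0.00205 and 0.0233), where it called 1.24% of all genes with an adjusted p. The median log2 fold change was −0.02. Bhlhe40, the repressor DEC1, had 107, 141 and 93.6 CPM at D14 and 47.3, 59.2 and 61.4 CPM at D0 (log2 fold change 1.03, SE 0.20; edgeR adjusted p = 0.280). Its paralogue Bhlhe41, DEC2, had 7.24, 6.95 and 8.78 CPM at D14 and 10.3, 22.9 and 28.9 CPM at D0 (log2 fold change −1.43, SE 0.36; edgeR adjusted p = 0.347). Both E-box repressors had ranges that did not overlap, in opposite directions. Of the 16 genes, 4 had such ranges with D14 higher and 1 with D14 lower, these 2 included. The shares over all tested genes were 10.9% and 10.7%.

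Nfil3, a repressor that competes with DBP for D-boxes, had 16.9, 28.1 and 26.3 CPM at D14 and 11.5, 4.98 and 13.4 CPM at D0. It was lowest in D0 replicate 2, where Dbp was highest, and its log2 fold change was 1.26 (SE 0.37; edgeR adjusted p = 0.357). The PAR bZIP relatives of Dbp peaked in the same library. Hlf had 11.5, 10.5 and 14.9 CPM at D14 and 6.98, 32.8 and 16.8 CPM at D0, in the D0 order of Dbp. Tef had 176, 135 and 147 CPM at D14 and 116, 337 and 52.3 CPM at D0, and parted from Dbp in D0 replicate 3, its lowest library. Rora, an activator of Arntl, had 63.3, 64.2 and 72.0 CPM at D14 and 48.7, 55.5 and 43.8 CPM at D0 (log2 fold change 0.43, SE 0.15; edgeR adjusted p = 0.364).

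Of 6 genes that cycle in many mouse tissues, 0 passed and 3 were higher at an unadjusted p under 0.05, which 12.6% of all tested genes had in either direction. Usp2, a deubiquitinase, had 20.1, 22.3 and 15.6 CPM at D14 and 5.35, 9.90 and 12.01 CPM at D0 (log2 fold change 1.09, SE 0.31; edgeR adjusted p = 0.347). Wee1, a cell cycle kinase under E-box control, had 21.7, 29.0 and 23.9 CPM at D14 and 11.6, 18.1 and 16.0 CPM at D0, and Nampt, the enzyme of NAD salvage, 83.8, 89.0 and 109 CPM at D14 and 67.6, 75.4 and 75.4 CPM at D0. Their adjusted p-values were 0.361 and 0.390 (edgeR). Of the 6 genes, 4 had every D14 library above every D0 library, against 10.9% of all tested genes. Usp2, Wee1 and Nampt were among them, but were named for an unadjusted p that favours such ranges. The lowest library of these 3 could therefore only be a D0 one, and it was D0 replicate 1 for each.

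Values of genes that share inputs with Per1 stand beside it. Of 10 glucocorticoid and CREB inducible genes, 10 had a positive log2 fold change, as had 46.85% of all tested genes. For 9 the ranges did not overlap (10.9% of all tested genes had such ranges with D14 higher). In edgeR's test 0 passed, while 7 had an unadjusted p under 0.05 and DESeq2 called 4, against 12.6% and 1.24% of all genes. They were lowest in D0 replicate 1 in 8 of 10 cases, as Per1 was, where 14.7% of all tested genes were. The 9 genes and Per1 could be lowest only in a D0 library, so this share over all libraries is not a like comparison. Crem was lowest in D0 replicate 2 and Zbtb16 in D0 replicate 3. The list was chosen with earlier results of these data known. Tsc22d3, which encodes the glucocorticoid-induced protein GILZ, had 624, 627 and 750 CPM at D14 and 84.8, 486 and 397 CPM at D0 (edgeR adjusted p = 0.446). Sik1, a kinase induced through CREB, had 380, 303 and 338 CPM at D14 and 66.0, 171 and 142 CPM at D0, and Nr4a1, an early-response nuclear receptor, 404, 429 and 368 CPM at D14 and 31.5, 130 and 130 CPM at D0. The part of these inputs in the Per1 values was not tested. Of 7 genes tied to daily temperature cycles, 0 passed in edgeR's test, 4 were higher at an unadjusted p under 0.05 and DESeq2 called 3, against 12.6% and 1.24% of all genes. Among them Hsph1, a chaperone, had 79.5, 102 and 104 CPM at D14 and 53.1, 42.8 and 38.1 CPM at D0, whereas the RNA-binding protein gene Cirbp, with 91.3, 60.0 and 32.9 CPM at D14 and 93.6, 65.6 and 64.8 CPM at D0, overlapped.

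Among 12966 other genes with a mean of at least 5 CPM, those whose centred log2 profile lay nearest to Arntl, by root mean square difference over the 6 libraries, were Mest, an imprinted gene (0.17), Ltf (0.17), Banp (0.18), Sntn (0.19) and Dtx4 (0.20). Mest had 23.5, 35.5 and 34.7 CPM at D14 and 37.4, 14.9 and 16.3 CPM at D0. Nearest to Dbp, at larger distances, were Rn7s2 (0.71), Serf2 (0.72), Rn7sk (0.77), Rn7s1 (0.83) and Tlr4 (0.86). Rn7s1, Rn7s2 and Rn7sk are small RNAs without a poly(A) tail, and Rn7s1 and Rn7s2 are near-identical copies whose reads may be split between them. Rn7sk had 13.6, 6.50 and 10.3 CPM at D14 and 5.64, 34.6 and 29.6 CPM at D0, so these RNAs were high in D0 replicates 2 and 3 together with Dbp. The part of RNA capture in the Dbp values was not tested.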

How the data were processed

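Lungs of balb/c mice gave 6 RNA libraries, grouped as D14 and D0 by their titles. The authors deposited estimated counts, 1 line per gene symbol, not scaled for depth. The submitters' processing notes list HISAT2 2.1.0, StringTie 1.3.4b, CASAVA 1.8 and edgeR with GRCm38. Tool roles, annotation and strand setting: not given in the sources used here. RNA was extracted with TRIzol, per the labels' protocols, in a text that names macrophages where the tissue label gives lungs. Of 29757 lines, 4 without whole counts were left out, and the values of the others were whole before rounding; 50 repeated symbols were kept apart, none of them a clock gene. No column lacked a sample.

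Genes were tested with edgeR 4.0.16 (R 4.3.3): TMM factors, the default low count filter, robust quasi-likelihood F test, two-sided, no covariate, Benjamini-Hochberg adjustment over 17686 genes, threshold 0.05. The SE is the log2 fold change divided by the square root of F. Log2 CPM used a prior count of 2. The test was checked on simulated data. Alternatives were DESeq2 1.42.0, limma-voom (limma 3.58.1), other scaling, filters and arm definitions, a replicate block and each library left out. With 3 libraries per day a permutation test of 1 gene cannot go below 0.1, so none was used. Positions and exon lengths come from GENCODE M21 (GRCm38).

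The members and lists were chosen with earlier results of these data known. Genes named are all members; of the wider clock and output lists, those at an unadjusted p under 0.05 and the 4 with the widest range; and the 5 nearest to Arntl and to Dbp. Other lists are given by counts or summed CPM, with examples chosen after their values were seen.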

Additional observations from a re-analysis of the deposited data

How the results depend on the processing

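The count of core clock genes past an adjusted p of 0.05 was 0 under each of the 14 alternatives run. The count of wider clock genes was 0 except with DESeq2, where it was 2. Over all genes the count of 6 became 247 with DESeq2 (146 higher, 101 lower), 26 with no low count filter (22 higher, 4 lower) and 0 with the replicate number as a block, and ran from 0 to 22 with 1 library left out: leaving out any one D14 library gave 0, leaving out D0 replicate 1 gave 3, D0 replicate 2 gave 1 and D0 replicate 3 gave 22. The cause was not tested. Of 20 genes named with a log2 fold change, 16 kept their sign throughout. With 1 library left out, Npas2 ran from −0.094 to 1.13, Nr1d2 from −0.72 to 0.047, Hlf from −1.003 to 0.059 and Tef from −0.57 to 0.87. Tef stood at 0.26 with limma-voom and 0.28 with the replicate block. The arm difference was 2.67 for Arntl and Dbp only and ran from −0.046 to 1.61 with 1 library left out, the lowest without D0 replicate 2. Leaving out scaling factors moved the median log2 fold change of all genes by −0.07. Deviations of same-numbered libraries were weakly correlated (0.119, −0.0548 and −0.0972), and not every library correlated best with its own number. With 3 libraries a day, centred within the day, these values cannot settle whether the numbers pair the libraries. The titles state no pairing. Depth was ample for all members, the lowest count being 55; 3 libraries a day limit the precision.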
